A study of Zea mays with 18 samples.

Results

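The 3 libraries of isolated sperm cells were set against the 3 libraries of isolated egg cells of maize, 6 of the 18 libraries of a study that followed the first day of the zygote. Both gametes came from untreated wild-type plants of the inbred line B73, dissected by hand and frozen, with 1000 sperm cells pooled for each sperm library and 20 egg cells pooled for each egg library. Polyadenylated RNA was amplified as full-length cDNA by PCR and sequenced in pairs. The other 12 libraries, from zygotes and their daughter cells, entered only the scaling, the filter for tested genes and the estimate of the spread. Through that filter the tested genes include some, such as CSLD1 and lox1, with a fitted log2 fold change of 0.00 between the gametes. Such genes count in the shares of tested genes given below. The labels do not say that the libraries of a group came from separate plants, so the p-values measure the spread between these libraries, which may be technical.

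In flowering plants a pollen grain carries a pair of sperm cells inside a large vegetative cell, and the pollen tube delivers them to the embryo sac. There 1 sperm cell fuses with the egg cell to form the zygote and the other fuses with the central cell to start the endosperm. Sperm cells are small, with little cytoplasm and dense chromatin, while the egg cell is large and stocked with ribosomes and organelles. HAP2, a membrane protein of sperm, is needed for the fusion itself.

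Levels are given as CPM (counts relative to library size) after scaling by the trimmed mean of M values (TMM) over all 18 libraries. They compare a gene between libraries and not genes with each other, since longer transcripts give more reads. A gene was called where the adjusted p of edgeR's quasi-likelihood test was below 0.05, and log2 fold changes are sperm over egg with their standard errors. In pooled cells, fewer cells of a type and less RNA per cell cannot be told apart.

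The sperm libraries held 19083613, 25000878 and 22416726 counts and the egg libraries 11761976, 15859565 and 18373932. Levels in the 3 sperm libraries followed each other closely, with Spearman coefficients across the 9643 genes detected in both gametes of 0.975 to 0.979, against 0.756 to 0.895 between egg libraries. The TMM factors were 0.454 to 0.502 in sperm and 0.872 to 1.22 in egg, so the position of 0 depends on the scaling. Over the tested genes the log2 fold change had its median at -0.80 with TMM and at -1.80 with library size alone. Small fold changes, and any statement that a gene is alike in both gametes, rest on that choice.

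Sperm and egg cells differed in most of the genes that could be tested. Of 24835 genes, 6123 (24.7%) were higher in sperm and 9753 (39.3%) were lower, together 63.9%. With library size alone the split was 4202 higher and 12084 lower. Counts within a gene group are given against these shares: a group with about 24.7% of its members higher and 39.3% lower does not stand apart from all tested genes. The sperm and egg values did not overlap for 5947 of the higher and 8227 of the lower genes. The differences were large: 3178 higher and 6618 lower genes changed by at least 10-fold, 960 and 2643 by at least 100-fold, and 194 and 675 by at least 1000-fold in fitted terms. Many of the last are genes with few or no counts in the other gamete, where the fitted size is no bound.

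**Figure D1:**
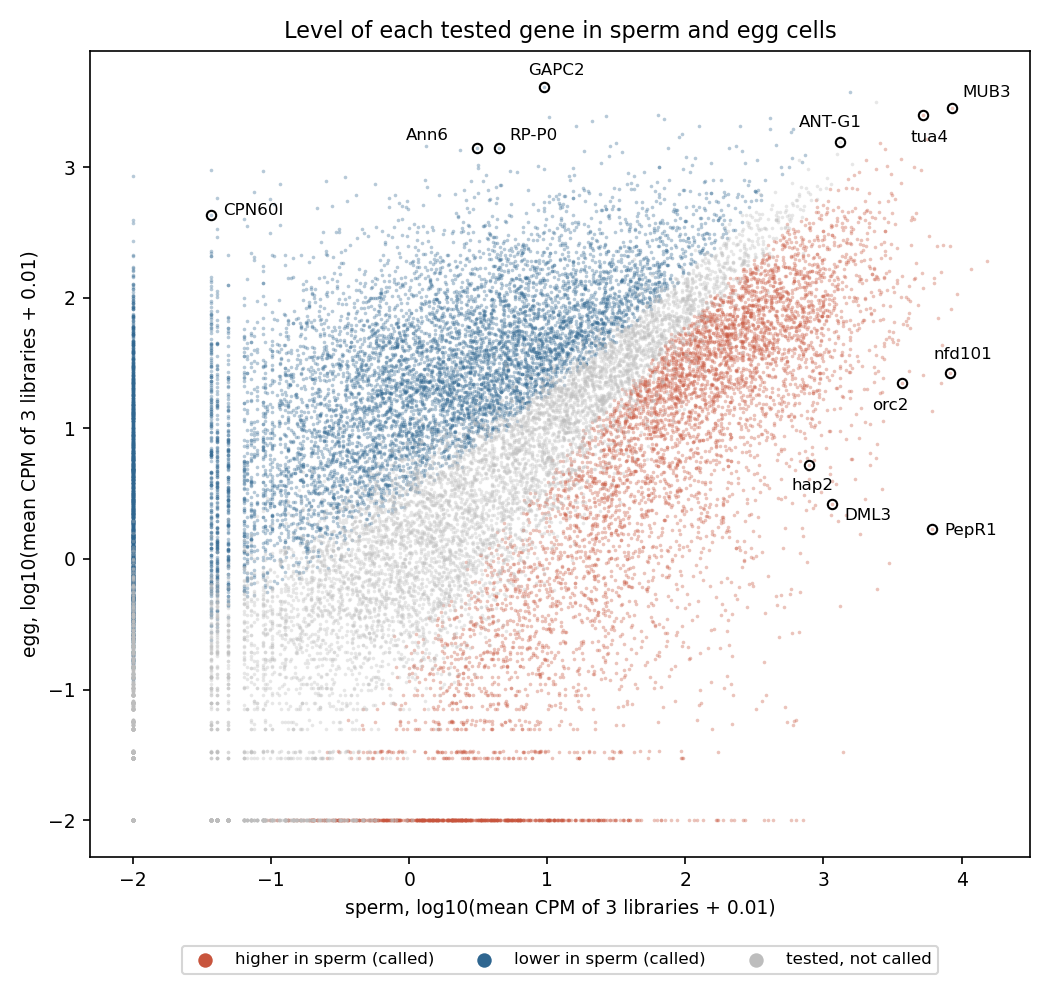
Mean CPM of each tested gene in sperm (horizontal) and in egg (vertical), both as log10 with a small offset. Each point is 1 gene, coloured by its call, and a set of the genes named in the text is circled. PepR1 lies far to the right with a low egg level, GAPC2 at the top, and MUB3 and tua4 in the upper right corner.

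The label of each group was checked against marker genes. The fusion gene hap2 had 923, 586 and 830 CPM in sperm libraries, against 8.63, 3.11 and 3.99 CPM in egg libraries (log2 fold change 7.17 ± 0.70, 7.79 without egg replicate 1). Of 8 genes of the egg and embryo sac, 7 were tested, 1 was called higher in sperm (wox9A, on 4 counts in sperm replicate 1 and 0 in the other gamete libraries, a call lost without sperm replicate 1, without any 1 egg library and with library size alone) and 4 lower, and their summed level was 31.02 to 35.2 CPM in sperm and 576.7 to 3786 CPM in egg. Most of the egg sum came from es1, es2 and es4, small secreted proteins of the embryo sac. Egg replicate 1 held the most of each, with 1465 CPM of es1 against 256 and 661 CPM in the other egg libraries. Without that library the log2 fold change was -4.02 for es2 and -4.10 for es4, and with it -5.23 for each. Of 18 photosynthesis genes 11 had 0 counts in all sperm libraries and 7 in all egg libraries. Of 6 tested 3 were lower in sperm and none higher, and the sum over the 18 was 8.80 to 16.6 CPM in sperm and 70.2 to 104.8 CPM in egg. Of 21 genes of endosperm and nucellus 14 were at 0 counts in sperm and 12 in egg, and of 8 tested 7 were lower in sperm and 1 higher, so markers of these tissues moved with the egg. The sum over the 21 was 496 to 755 CPM in sperm, nearly all from du1, a starch synthase, and 339 to 984.5 CPM in egg, including betl4 at 134, 129 and 63.7 CPM. gz27 had 0 counts in sperm and 75.2, 14.2 and 23.6 CPM in egg, and EBE-2 had 0 counts in sperm and 237, 4.34 and 4.29 CPM in egg. EBE-1 had 0.231, 0.0797 and 0 CPM in sperm and 82.6, 28.2 and 18.6 CPM in egg. Egg replicate 1 was the highest of the egg libraries for gz27, EBE-1 and EBE-2. The part that RNA of other embryo sac or ovule tissue has in the egg levels below was not tested.

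The pollen vegetative cell, which surrounds the sperm, was also represented. All 14 of its marker genes were tested, all 14 were higher in sperm, and none was at 0 counts in either gamete. Their summed level was 1630 to 2035 CPM in sperm and 25.9 to 56.4 CPM in egg. PG14, a pollen polygalacturonase that loosens pectin, led with 494, 334.4 and 341 CPM in sperm, against 4.52, 3.76 and 2.66 CPM in egg. EXPB10, a pollen beta-expansin, had 226, 186 and 199 CPM in sperm and 1.95, 1.81 and 1.51 CPM in egg. The part that vegetative-cell RNA has in the sperm levels below was not tested. The expansins (6 of 11 higher in sperm) and ABP1, an actin-depolymerizing factor, overlap with this marker list.

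Chromatin genes stood among the most counted in sperm. Of 9 tested histone genes 7 were higher in sperm and 1 lower, with a median log2 fold change of 4.91, and their sum was 5073 to 7145 CPM in sperm and 20.6 to 170 CPM in egg. These counts are of polyadenylated RNA, whereas much histone RNA of animals lacks a poly(A) tail. The H2B gene his2b5 had 1931, 1347 and 1454 CPM in sperm and 1.25, 0.361 and 15.7 CPM in egg. Its log2 fold change was 8.06 ± 0.96 and 10.85 without egg replicate 3. With library size alone 5 histone genes were higher and 2 lower.

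Proteins that bend or assemble chromatin were divided. Of 17 tested genes 9 were higher and 6 lower in sperm (6 and 6 with library size alone). The HMG-box gene nfd101 had 9190, 7893 and 7547 CPM in sperm, against 6.75, 21.0 and 51.5 CPM in egg. No sperm and egg values overlapped, and nfd101 was among the 10 highest genes of sperm (log2 fold change 8.25 ± 0.60, 9.14 without egg replicate 3; edgeR adjusted p = 4.83e-09). A further HMG-box gene, MNB1B, had 3697, 2614 and 2849 CPM in sperm and 154, 136.5 and 314 CPM in egg. Of the nucleosome assembly genes of the NAP family, nfa101, nfa103 and nfa104 were lower in sperm, and only nfa102 was higher. The log2 fold change was -9.53 for nfa103 and for nfa104. nfa101 had 10.6, 12.3 and 14.9 CPM in sperm and 313, 358 and 501 CPM in egg, whereas nfa102 had 286, 259 and 276 CPM in sperm and 114, 111 and 114 CPM in egg. With library size alone nfa102 was no longer called (log2 fold change 0.22, edgeR adjusted p = 0.401).

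Most of the called genes for DNA replication were higher in sperm. Of 16 replication genes 9 were higher and 3 lower in sperm, with a median log2 fold change of 2.83. orc2, a subunit of the origin recognition complex, had 4199, 3301 and 3559 CPM in sperm and 6.12, 40.8 and 19.3 CPM in egg (log2 fold change 7.34 ± 0.60, 8.14 without egg replicate 2). The complex was not of 1 kind, since orc4 had 0 counts in every sperm library and 24.5, 27.3 and 12.1 CPM in egg, at least 228-fold lower in sperm. The sliding clamp genes pcna2 and PCNA stood close together. pcna2 had 1154, 834.5 and 1004 CPM in sperm and 36.4, 38.0 and 80.8 CPM in egg, and PCNA was 18.8-fold higher in sperm. Top1, a topoisomerase, was among the 3 lower genes at 11.3, 7.66 and 8.80 CPM in sperm, against 184, 214 and 173 CPM in egg.

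Among 17 tested cyclin and cell-cycle genes 6 were higher and 6 lower in sperm, not far from the shares of all tested genes. The sum over the 18 listed was 5139 to 5746 CPM in sperm and 706.5 to 763.8 CPM in egg. The spindle checkpoint gene mad2 had 2926, 2244 and 2295 CPM in sperm and 106, 146 and 167 CPM in egg (log2 fold change 4.11 ± 0.34, edgeR adjusted p = 2.41e-08). The retinoblastoma-related genes of the list, RBR1 and RBR2, which hold back entry into S phase, were higher in sperm. RBR1 had 1401, 1253 and 1529 CPM in sperm and 68.3, 37.0 and 88.0 CPM in egg, and RBR2 was 14.9-fold higher in sperm. cycD4, a D-type cyclin that opposes them, had 164, 183.5 and 155 CPM in sperm and 0.278, 3.40 and 2.84 CPM in egg. cyclin-C had 1.73, 1.67 and 0.550 CPM in sperm and 70.9, 62.0 and 84.6 CPM in egg.

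Cytoskeletal genes were divided by member. All 9 called tubulin genes of 12 tested were higher in sperm under TMM, and 4 were higher and 1 lower with library size alone. The alpha-tubulin gene tua4 was among the 10 highest genes of egg and yet higher in sperm, with 6055, 4730 and 5113 CPM in sperm and 1076, 3734 and 2667 CPM in egg, a difference that library size alone did not keep (log2 fold change 0.13, edgeR adjusted p = 0.649). Of 20 actin and myosin genes 10 were higher and 5 lower in sperm (7 and 7 with library size alone). ACT-1 had 53.6, 38.0 and 35.1 CPM in sperm and 364, 1353 and 861.5 CPM in egg. The actin-depolymerizing factors stood on opposite sides: ABP1 had 61.5, 51.3 and 32.6 CPM in sperm and 0.765, 0.506 and 0.544 CPM in egg, while ABP3 had 1.04, 0.558 and 0.367 CPM in sperm and 197.5, 241 and 339 CPM in egg. PRO4, a profilin that delivers actin monomers, was 16.1-fold lower in sperm. Myosin-3 had 41.8, 34.0 and 47.0 CPM in sperm and 0.348, 0.0723 and 0.484 CPM in egg.

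**Figure D2:**
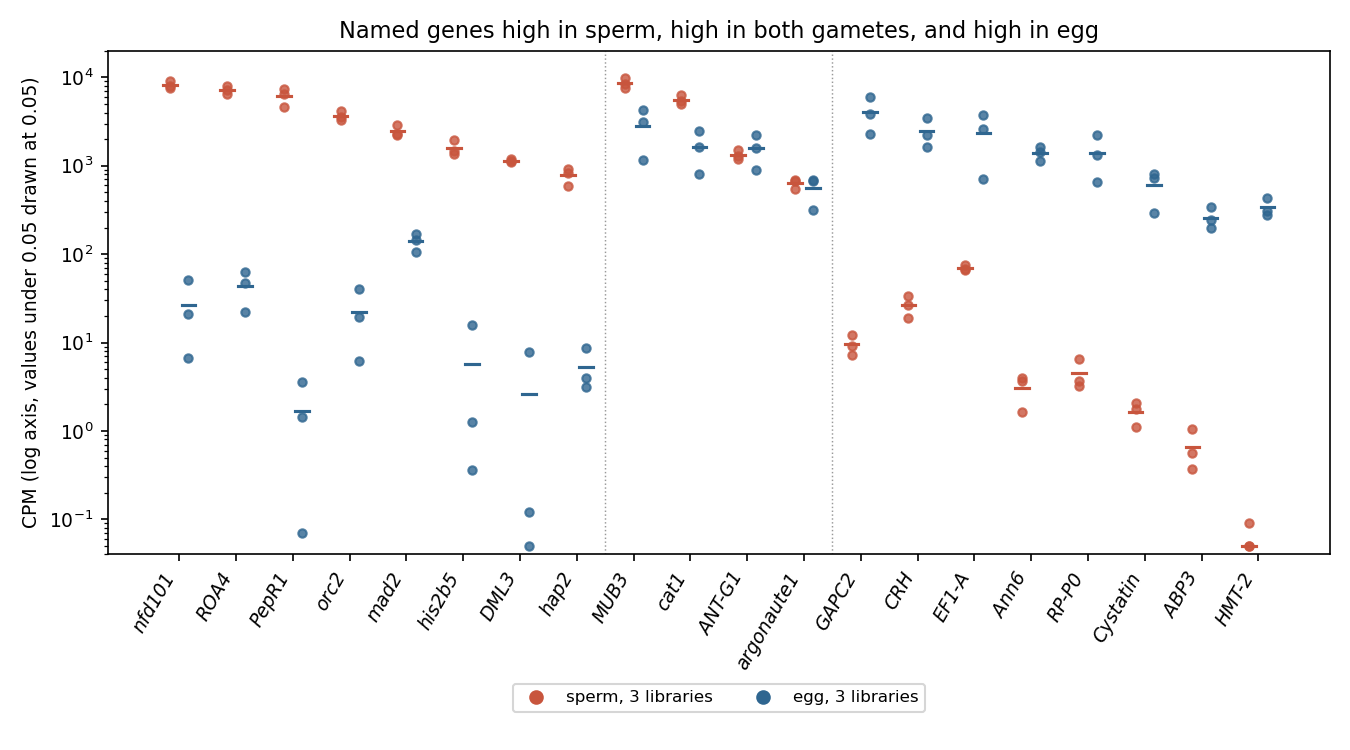
CPM on a log axis of 20 named genes in each sperm library and each egg library, with a bar at the mean of 3 libraries; values under 0.05 CPM are drawn at 0.05. Genes high in sperm stand on the left, genes high in both gametes in the middle and genes high in egg on the right; the sperm points of nfd101 lie at 7547 to 9190 CPM and the egg points of GAPC2 at 2271 to 6071 CPM.

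The receptor kinase PepR1 was high in sperm and low in egg. It had 6405, 4661 and 7322 CPM in sperm, against 0.0695, 1.45 and 3.57 CPM in egg (log2 fold change 11.76 ± 0.93, 12.91 without egg replicate 3; edgeR adjusted p = 1.26e-08). In Arabidopsis, receptors of this name bind endogenous danger peptides. It made up most of the summed level of the 18 tested receptor kinases, of which 7 were higher and 5 lower in sperm. Other signalling genes high in sperm were SnrK1, a subunit of the energy-sensing kinase, at 1544, 1349 and 1477 CPM against 97.9, 219.5 and 250 CPM in egg, and PP2C25, a protein phosphatase, at 953, 724 and 747 CPM against 8.42, 12.4 and 15.4 CPM in egg. rop2, a small GTPase of polar growth, was 9.65-fold higher in sperm. ROA4, whose name gives no role used here, was a further gene of the sperm top 10, at 7996, 6480 and 7248 CPM against 22.4, 46.5 and 62.3 CPM in egg.

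Among the named genes listed here, those of protein synthesis were mostly lower in sperm. Of 36 tested ribosomal protein genes 25 were lower and 4 higher in sperm, with a median log2 fold change of -3.30, and their sum was 3748 to 4077 CPM in sperm and 7811 to 13860 CPM in egg. RP-P0, a protein of the ribosomal stalk, had 3.24, 6.54 and 3.67 CPM in sperm and 662, 2206 and 1331 CPM in egg. The 2 genes named rps4 were both lower in sperm, 1 of them at 188, 166 and 166 CPM in sperm against 430.5, 549 and 631 CPM in egg and the other at 2.08, 0.399 and 1.28 CPM in sperm against 356, 738 and 433.5 CPM in egg. The exceptions included rpl5, at 356, 341 and 351 CPM in sperm and 106, 78.3 and 222 CPM in egg (log2 fold change 0.34 with library size alone, not called there).

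Of 14 translation factors 9 were lower and 2 higher in sperm. The elongation factor gene EF1-A had 75.1, 65.8 and 67.6 CPM in sperm and 709, 3742 and 2605 CPM in egg (log2 fold change -5.12 ± 0.47, edgeR adjusted p = 6.59e-08). eif3, an initiation factor gene, was 3.17-fold higher in sperm. Egg replicate 1 had the lowest value of the 3 egg libraries for EF1-A and RP-P0, and all egg values lay above all sperm values.

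**Figure D3:**
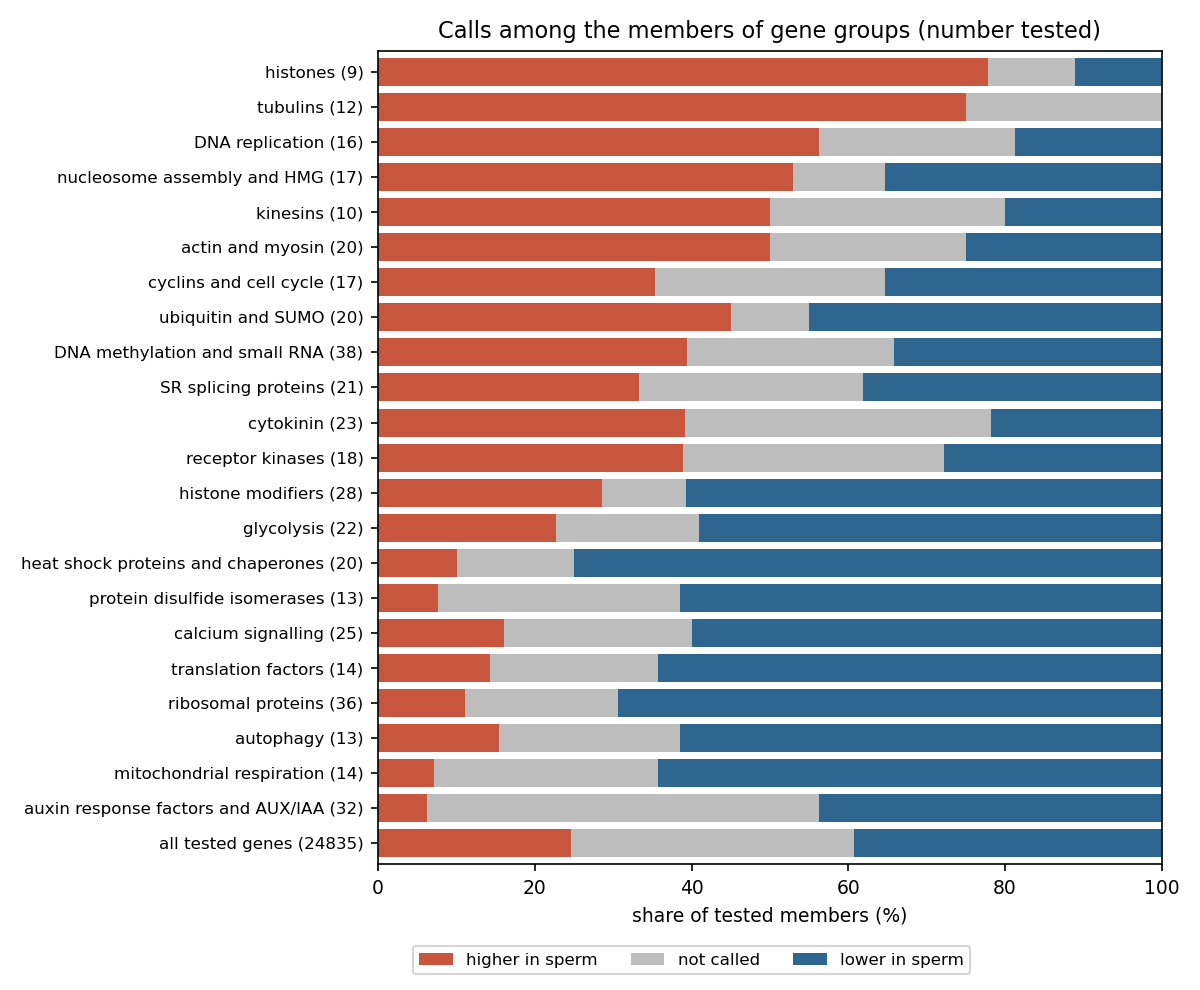
Share of the tested members of 22 gene groups that were called higher in sperm, not called or called lower in sperm; the number tested stands beside each name and all tested genes are at the bottom. Histones have the longest bar of higher genes (7 of 9), while most ribosomal protein genes (25 of 36) were lower in sperm.

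Energy metabolism showed the same pattern for most of its listed genes, with exceptions. Of 22 glycolysis genes 13 were lower and 5 higher in sperm. GAPC2, a glyceraldehyde-phosphate dehydrogenase and the most counted gene of egg by mean level, had 12.1, 9.25 and 7.15 CPM in sperm and 2271, 6071 and 3872 CPM in egg. Its relative gpc4 was also lower, at 144, 121 and 112 CPM in sperm and 1312, 3023 and 1843 CPM in egg. TIM, a triosephosphate isomerase, was 51.2-fold lower in sperm. The aldolases went opposite ways: ald1 had 5318, 3967 and 4223 CPM in sperm and 509, 1536 and 945 CPM in egg, and aldolase2 had 107, 82.0 and 101.5 CPM in sperm and 570, 1113 and 1208 CPM in egg.

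Of 14 genes of mitochondrial respiration 9 were lower and 1 higher in sperm. ATP2, the beta subunit of the ATP synthase, had 31, 35 and 34 CPM in sperm and 767, 696.5 and 578 CPM in egg, while the alpha subunit gene atp1 was the exception at 1130, 962 and 873 CPM in sperm and 133, 28.99 and 108.5 CPM in egg. vdac2, a channel of the outer mitochondrial membrane, had 0.116, 0.239 and 0.183 CPM in sperm and 102, 220 and 242 CPM in egg. All 8 called mTERF genes (organelle transcription terminators, 9 tested) were lower in sperm.

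The listed chaperone and secretory genes were likewise mostly lower in sperm by number of genes. Of 20 heat shock and chaperone genes 15 were lower and 2 higher, with 10 lower when egg replicate 1 was left out. CRH had 33.7, 18.8 and 26.7 CPM in sperm and 1615, 3477 and 2254 CPM in egg. HSP90-2 had 457, 350 and 430 CPM in sperm and 852, 3893 and 2394 CPM in egg. Of 13 protein disulfide isomerases, which fold secreted proteins, 8 were lower and 1 higher. The exception was pdi12, at 2268, 2062 and 2090 CPM in sperm and 159, 620 and 350 CPM in egg. It carried most of the sperm sum of the 13 genes, so that sum went the other way. The sum was 2492 to 2719 CPM in sperm and 1423 to 1704 CPM in egg.

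Further families had more genes called lower than higher in sperm. The calcium-binding annexins had no gene higher in sperm and 4 of 6 lower, and Ann6 had 1.62, 3.67 and 3.94 CPM in sperm against 1618, 1422 and 1127 CPM in egg. Of 25 calcium signalling genes 15 were lower and 4 higher in sperm, CaM1, a calmodulin, being 7.40-fold lower and CPK21, a calcium-dependent kinase, 18.4-fold higher. Their summed levels overlapped, at 1348 to 1594 CPM in sperm and 1304 to 2718 CPM in egg. Cystatin, an inhibitor of cysteine proteases, had 2.08, 1.75 and 1.1 CPM in sperm and 735, 293 and 810 CPM in egg. The vacuolar cation exchanger gene cax1 had 0 counts in every sperm library and 57.9, 54.2 and 59.3 CPM in egg, at least 611-fold lower in sperm. Atg8c, which coats autophagosomes, was 34.1-fold lower in sperm, and of 13 autophagy genes 8 were lower and 2 higher. The summed levels of the autophagy genes overlapped as well, at 1506 to 1632 CPM in sperm and 1234 to 3376 CPM in egg.

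Within many families a different member stood high in each gamete. Of 20 ubiquitin and SUMO genes 9 were higher and 9 lower in sperm. Rbx1, the RING subunit of cullin ligases, had 1612, 1289 and 1324 CPM in sperm and 156, 57.9 and 224 CPM in egg, while Cullin-1, the scaffold of the same ligases, had 2.77, 3.83 and 4.95 CPM in sperm and 248, 293 and 361 CPM in egg. The conjugating enzyme gene uce2 was 10.7-fold higher in sperm, and the conjugating enzyme gene ubc7 was 27.9-fold lower. SUMO1b had 3304, 3032 and 2895 CPM in sperm and 791, 1084 and 789 CPM in egg, and a further SUMO gene, sum1, had 0 counts in every sperm library and 21.7, 2.602 and 3.14 CPM in egg.

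The SR proteins, which choose splice sites, also divided, with 7 of 21 higher and 8 lower in sperm (7 and 12 with library size alone). These counts were near the shares of all tested genes, 24.7% higher and 39.3% lower, so the family did not stand apart by number of calls. Its summed level did differ, at 6894 to 8458 CPM in sperm and 1470 to 3010 CPM in egg. RSZ21 had 1754, 1512 and 1401 CPM in sperm and 133, 421 and 239 CPM in egg. srp30 had 3.12, 1.91 and 3.58 CPM in sperm and 34.15, 44.3 and 35.5 CPM in egg. Among the cellulose synthases CesA-6 was 3.59-fold lower in sperm, whereas CesA-2 was 99.4-fold higher. Of 16 tested 2 were higher and 6 lower, the latter near the share of all tested genes. Their sum was 1916 to 2447 CPM in sperm and 317.3 to 452.9 CPM in egg.

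**Figure D4:**
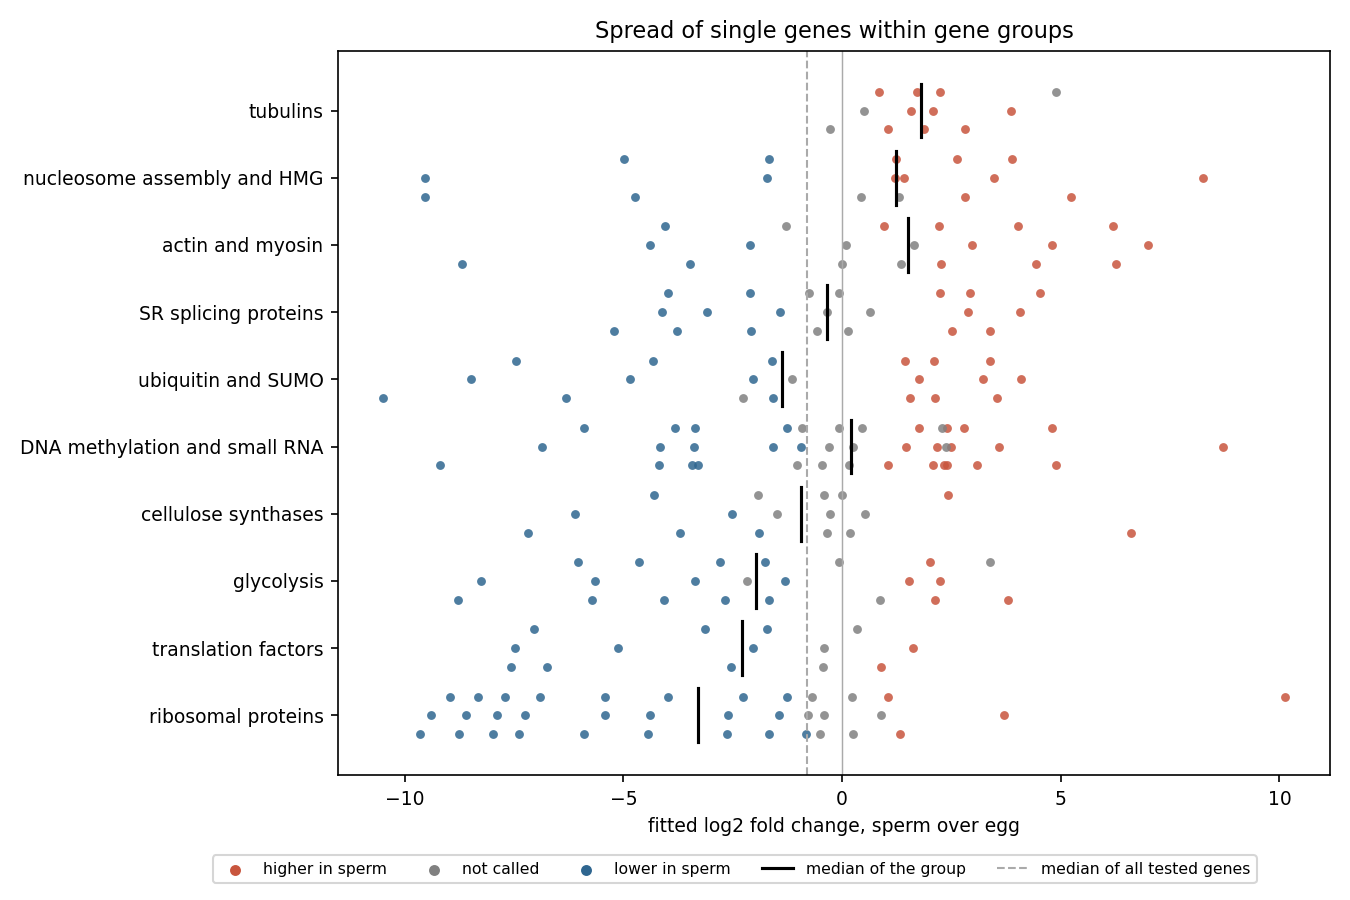
Fitted log2 fold change, sperm over egg, of every tested member of 10 gene groups; each point is 1 gene coloured by its call, the short bar is the median of the group and the dashed line the median of all tested genes (-0.80). Ubiquitin and SUMO genes and SR proteins have called members on both sides of 0, with 6 of 21 SR genes not called, while ribosomal protein genes reach far to the left.

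Genes of DNA methylation and small RNA were divided, while 17 of 28 tested histone modifiers were lower in sperm and 8 higher. Of 38 tested genes of DNA methylation and small RNA 15 were higher and 13 lower in sperm (12 and 17 with library size alone), with a median log2 fold change of 0.20. DML3, a DNA glycosylase that removes methylated cytosine, had 1192, 1141 and 1099 CPM in sperm and 7.79, 0 and 0.121 CPM in egg. Nearly all of its egg counts came from replicate 1, and its log2 fold change was 8.71 ± 1.95, and 13.98 without that library. argonaute1, a binder of microRNA, had 673, 549 and 695 CPM in sperm and 312, 695 and 668.5 CPM in egg, so the groups overlapped. Among the histone modifiers the histone deacetylase genes differed, Hda1 having 5.55, 8.69 and 7.52 CPM in sperm and 193, 255 and 275 CPM in egg, and HDA108 having 584, 382 and 479 CPM in sperm and 101, 54.7 and 143 CPM in egg.

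Most of the genes found in either gamete were found in the other. At 1 CPM or more in all 3 libraries, 12883 genes were detected in sperm and 14129 in egg. The shared set was 9643 genes, 74.9% of those of sperm and 68.2% of those of egg. It held 91.9 to 92.1% of the counts of sperm libraries and 79.0 to 84.6% of the counts of egg libraries. Among these shared genes 3526 were higher in sperm, 3426 were lower and 2691 were not called, with a median absolute log2 fold change of 1.82. Genes detected in both could still lie far apart in level, as nfd101 and GAPC2 did.

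Few genes were detected in sperm with under 0.1 CPM in every egg library, and the reverse set was larger. The first held 564 genes (866 without egg replicate 3), of which 407 had 0 counts in all egg libraries, and took 0.636 to 0.661% of the counts of sperm libraries. The second held 993 genes (1440 without sperm replicate 1), of which 761 had 0 counts in all sperm libraries. It took 2.26 to 3.19% of the counts of egg libraries. The absence limit was not equally strict: in sperm replicate 1 a gene with 1 count lay above 0.1 CPM, so absence there meant 0 counts. Each egg library could hold 1 count of a gene and stay under the limit. Between these limits lay 2676 genes detected in sperm and 3493 detected in egg. In the other gamete they did not reach 1 CPM in every library, nor were they under 0.1 CPM in every library. Single libraries of the other gamete could therefore hold more than 1 CPM.

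Of the genes in sperm only at these limits, por2, a tonoplast aquaporin, had 544, 645 and 607 CPM in sperm and 0.0695, 0 and 0.0605 CPM in egg. The ratio of the groups was 13530, with a 95% counting interval of 3745 to 111700. The unnamed IDs GRMZM2G055154 and GRMZM2G122762 had 0 counts in every egg library. GRMZM2G055154 had 1037, 474 and 634 CPM in sperm, at least 10670-fold higher than in egg, and GRMZM2G122762 had 793, 548.5 and 567 CPM, at least 9493-fold higher. GRMZM2G333079 had 1546, 1440 and 1181 CPM in sperm and 0.0695, 0 and 0 CPM in egg, the highest sperm level in this set.

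In egg only, HMT-2, a homocysteine methyltransferase, had 0, 0 and 0.0917 CPM in sperm and 429, 308 and 276 CPM in egg. The ratio was 10750 in favour of egg, with a 95% counting interval of 1928 to 424500. CPN60I, a mitochondrial chaperonin, had 0, 0.0797 and 0 CPM in sperm and 475, 422 and 389.5 CPM in egg for the ID GRMZM2G111477, and a further ID under the same reference entry, GRMZM2G458208, had 0 counts in sperm and 57.9, 172 and 273.5 CPM in egg, so reads could be divided between them. GRMZM2G144995 had 0 counts in sperm and 298.5, 318 and 511 CPM in egg, at least 4019-fold lower in sperm. GRMZM2G466848 had 0 counts in sperm and 1.25, 915 and 1636 CPM in egg, where replicate 1 lay far below the other egg libraries.

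The counts of sperm were gathered on fewer genes. It took 506, 572 and 539 genes to hold 50% of the counts of the sperm libraries, and 1595, 888 and 1204 genes in the egg libraries. The 100 most counted genes held 19.8 to 21.6% of sperm counts and 10.5 to 16.4% of egg counts. The 1000 most counted held 63.3 to 66.0% of sperm counts and 39.5 to 52.5% of egg counts. The ranges did not overlap at either depth of the list, and egg replicate 1 was the most even library.

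**Figure D5:**
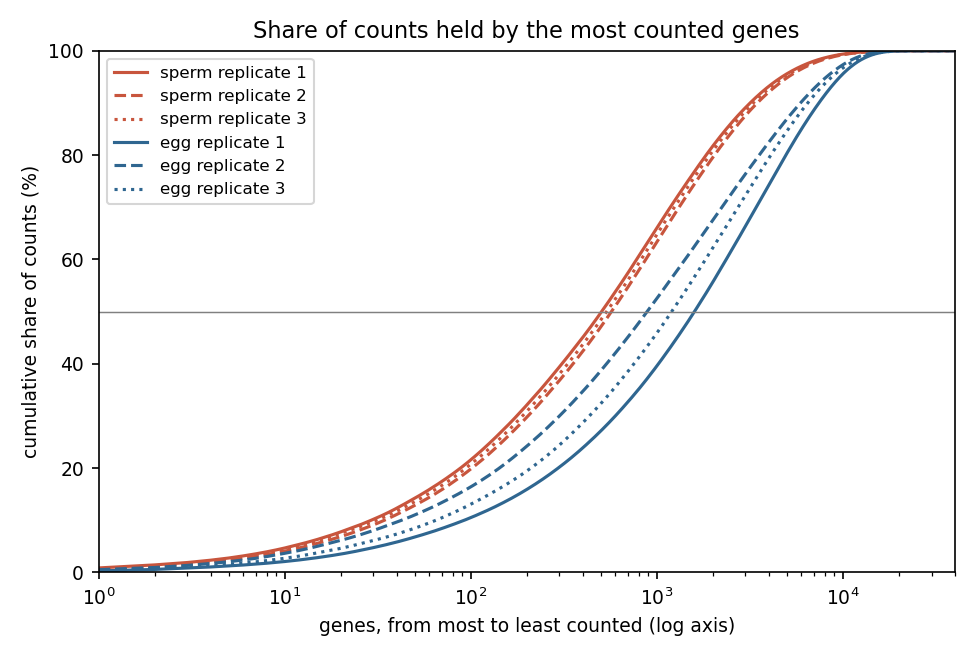
Cumulative share of counts (%) against the number of genes taken from most to least counted (log axis), for each sperm and each egg library. The 3 sperm curves lie together and cross 50% at 506 to 572 genes, and the 3 egg curves cross it at 888 to 1595 genes.

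The gametes ranked their genes differently. Only 9 genes stood in the top 100 of both, by mean CPM, against 89 to 92 shared between pairs of sperm libraries and 53 to 70 between pairs of egg libraries. Of the 100 highest genes of sperm, 96 were detected in egg, at a median rank of 1850 there, and 20 ranked beyond 5000. Of the 100 highest genes of egg, 93 were detected in sperm, at a median rank of 3034, and 35 ranked beyond 5000. Across the shared genes the Spearman coefficient between a sperm and an egg library was 0.245 to 0.38. Genes are not independent replicates, and length and base composition are common to both libraries of a pair.

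A small set was high in both. MUB3, grouped here with the ubiquitin genes, had 9769, 7618 and 8391 CPM in sperm and 1170, 4252 and 3127 CPM in egg and was in the top 10 of each gamete (another ID shares its reference entry). cat1, a catalase, had 6299, 5058 and 5420 CPM in sperm and 815, 2446 and 1650 CPM in egg. The unnamed ID GRMZM2G419891 had 2864, 2335 and 2458 CPM in sperm and 1085, 1995 and 1532 CPM in egg. It was called higher in sperm under TMM, with a log2 fold change of 0.69, and -0.28 with library size alone.

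For 545 genes, 56 of them named, the approximate 95% interval of the log2 fold change lay wholly between -1 and 1. The highest was ANT-G1, which moves ADP and ATP across the mitochondrial membrane, at 1491, 1276 and 1203 CPM in sperm and 906, 2211 and 1587 CPM in egg (log2 fold change -0.29 ± 0.25). sod4, a superoxide dismutase, had 801, 855 and 723 CPM in sperm and 462, 877 and 515 CPM in egg. dcl1, which cuts microRNA precursors, had 55.8, 64.4 and 43.5 CPM in sperm and 32.6, 45.8 and 55.6 CPM in egg. None of these 3 met the rule when the gamete libraries were fitted alone, where 125 genes did, or with library size alone, where the log2 fold change was -1.23 for ANT-G1, -0.65 for sod4 and -0.72 for dcl1. The set depends on the scaling: with library size alone 555 genes met the rule and 11 were the same, and with relative log expression scaling 557 met it and 276 were the same.

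Most of what each gamete holds has no informative name in the reference used. Of the tested genes 92.0% had none, 92.4% among those higher in sperm and 91.5% among those lower. IDs without an informative name took 86.6 to 87.1% of sperm counts and 81.8 to 83.9% of egg counts. A share of 37.6% of the tested genes paired with no RefSeq gene at all, 37.2% of the higher and 32.0% of the lower ones. The pairing differed between the sets detected in 1 gamete: 39.0% of the 564 sperm genes and 65.4% of the 993 egg genes paired with a RefSeq gene, against 71.6% of the shared genes. No function is given to unpaired or unnamed IDs.

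The most counted gene of every sperm library was unnamed. GRMZM2G328500 had 19020, 12310 and 14590 CPM in sperm and 116, 30.9 and 430 CPM in egg (log2 fold change 6.29 ± 0.69, 7.63 without egg replicate 3). AC194405.3_FG021 came next in every sperm library, at 12820, 10540 and 11550 CPM, against 116, 107 and 273 CPM in egg. GRMZM2G088064 was the third in each, at 10110, 8818 and 9079 CPM, against 89.6, 135 and 93.5 CPM in egg. In egg the highest unnamed ID was GRMZM2G153292, at 2630, 2206 and 2331 CPM in sperm and 1366, 4775 and 3254 CPM in egg, which was not called. GRMZM2G025720 had 60.4, 67.5 and 61.3 CPM in sperm and 1422, 3800 and 2284 CPM in egg. GRMZM2G112165 had 9.47, 6.70 and 14.5 CPM in sperm and 1082, 3704 and 2429 CPM in egg, and GRMZM2G032003 was 108-fold lower in sperm.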

How the data were processed

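Per the labels' protocols, messenger RNA of hand-isolated cells was captured on oligo(dT) beads, amplified with a SMARTer kit and made into Nextera libraries. Per the submitters' processing notes, the tools named are cutadapt 1.13, Trimmomatic 0.32, FastQC, STAR 2.5.2a, featureCounts and DESeq2, with B73 RefGen_v3. The authors deposited 1 table of raw counts per gene (39475 IDs, 18 libraries, 0 further sample columns). Strand use and the handling of reads that map more than once are stated in none of the sources at hand, so paralogs and overlapping genes may share reads.

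Counts were fitted with edgeR 4.0.16 (R 4.3.3, limma 3.58.1): filterByExpr, TMM, 1 coefficient for each of 6 groups over all 18 libraries, quasi-likelihood test, Benjamini-Hochberg adjustment over 24835 genes, call at 0.05. DESeq2 1.42.0 was an alternative. CPM in the text used TMM factors from all genes. Detection meant 1 CPM in all 3 libraries and absence under 0.1 CPM in all 3. A fold against 0 counts is a lower bound at 3 counts over the group. Such bounds and the 95% intervals of ratios cover counting error only.

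Names came from RefSeq (Zm-B73-REFERENCE-NAM-5.0, a build other than that of the counts, so no coordinates): 18387 IDs paired with 1 gene, 521 with more than 1 were left unnamed, and 2511 had an informative name. Ranks used counts and not counts per coding length, and protein comparison of unnamed IDs was planned and is not used here. The planned word searches for gene lists were replaced by 60 hand-picked lists, since searches took in unrelated genes. The members, the lists and the part of the data described were chosen with earlier results of these data known. Named genes are the 10 highest of each gamete, the 8 highest in 1 gamete only, the 8 high in both, the 6 highest of similar level, per list and direction the called gene of smallest p and that of highest level, and unnamed IDs with the highest levels. Genes named beyond these were chosen after their values were seen, to show relatives of a named gene. Replicate numbers were checked for pairing: deviations from the group means of sperm and egg libraries of the same number correlated at -0.0167, 0.0511 and 0.0418, so they were not treated as pairs.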

Additional observations from a re-analysis of the deposited data

How the results depend on the processing

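Calls were recomputed under other tools, scalings and filters and without each library. Against 6123 higher and 9753 lower genes, DESeq2 gave 6998 and 9307, no filter 6479 and 9519, relative log expression scaling 6748 and 9032, upper-quartile scaling 7052 and 8673, library size alone 4202 and 12084, and leaving out 1 library 5646 to 6434 higher and 8970 to 9887 lower. With the replicate number as a block, 4737 were higher and 6348 lower, and the gamete libraries fitted alone without the block gave 5035 and 7274; the numbers share only a label, so this is no paired test. Genes in sperm and not egg numbered 564, 349 with library size alone, 364 with detection at 2 CPM, 1039 with absence under 0.5 CPM and 625 to 866 with 1 library left out. Genes in egg and not sperm numbered 993, 1240 with library size alone, 855 with relative log expression scaling and 1867 with absence under 0.5 CPM. With 1 library left out they numbered 1070 to 1440, the most without sperm replicate 1. Genes of similar level numbered 545, and 125 when the gamete libraries were fitted alone. Of 2686 values for 208 named genes, 2579 kept their sign and side of the threshold and 86 lost the call. The sign differed from that of the reported fit in 17 values: with library size alone for eIF-5 (-0.01), m28 (-0.09) and GRMZM2G419891 (-0.28), and for GRMZM2G153292 with upper-quartile scaling (0.05) and without 1 library (-0.73 to 0.01), while the remaining 12 values were of the 6 genes of similar level named by rank. Each of these 6 changed sign under at least 1 alternative, among them sod4 with library size alone (-0.65) and ANT-G1 with relative log expression (0.04) and upper-quartile scaling (0.20). The cause of these changes was not tested. Ranks per coding length were not run.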

Other observations

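Among transcription factors and hormone genes, some members stood much higher in 1 gamete than in the other. sbp9, a factor of the SBP family, had 1335, 1247 and 1501 CPM in sperm and 98.0, 91.5 and 158 CPM in egg, and carried most of the summed level of its family, of which 2 of 11 tested genes were higher and 2 lower in sperm. MYBR67, related to MYB factors, had 825, 591 and 749 CPM in sperm and 25.7, 14.2 and 19.9 CPM in egg. NAC78 had 634, 594 and 504 CPM in sperm and 34.7, 32.6 and 79.7 CPM in egg. On the egg side, TIFY30 had 10.98, 5.58 and 4.58 CPM in sperm and 222, 705 and 402 CPM in egg. ocl1, a homeodomain factor of the epidermis, had 0.116, 0 and 0 CPM in sperm and 137, 58.1 and 182.5 CPM in egg.

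Of 32 auxin response genes 14 were lower in sperm, near the 39.3% of all tested genes that were lower. Only 2 were higher, a smaller share than the 24.7% of all tested genes. Their median log2 fold change was -2.47, and with library size alone 1 was higher and 19 lower. The sum over the 38 listed was 29.58 to 57.49 CPM in sperm and 441.3 to 685.5 CPM in egg. ARF17 had 3.004, 1.59 and 2.75 CPM in sperm and 120.5, 100.3 and 114 CPM in egg, with no overlap between the groups. Cytokinin genes had 9 of 23 higher and 5 lower in sperm (6 and 6 with library size alone). Among them cko3, a cytokinin oxidase that degrades the hormone, had 412, 374 and 359 CPM in sperm and 6.68, 11.1 and 6.41 CPM in egg (log2 fold change 5.52 ± 0.48, edgeR adjusted p = 4.1e-08).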
